A study of Mus musculus with 2 samples.

Results

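The 43 genes described here encode the contractile apparatus and the actin cytoskeleton of vascular smooth muscle cells (SMCs), together with the non-muscle isoforms of several of the same proteins. They were taken as a named list out of the 28000 features of both matrices, and all 43 were found. Their levels were read in aortic cells with at least 5 UMIs (unique molecular identifiers, each standing for 1 captured RNA molecule) of the reporter eGFP, at least 500 genes and at most 10% mitochondrial UMIs. This left 1919 of 2097 KO cells and 1692 of 2095 Control cells. The study profiled single cells, sorted for GFP, of the thoracic aorta in male C57BL/6 mice aged 24 weeks, with 1 library per genotype. The KO mice were Tsc1-/- in SMCs, from floxed Tsc1 alleles, and the Control mice were Tsc1+/+. Both carried Myh11-CreERT2, a tamoxifen-inducible recombinase driven by the smooth muscle myosin gene, and the mT/mG reporter, and both received tamoxifen at 1.5 weeks of age. Deletion and labelling therefore depended on Myh11 activity at the time of tamoxifen. The number of mice behind a library is not given in the labels used here. With 1 library per genotype no test was possible, and every interval below is a 95% interval of counting error alone and leaves out variation between mice or preparations.

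An SMC shortens when myosin filaments pull on actin filaments anchored to dense bodies in the cytoplasm and to adhesion plaques at the membrane. Calcium and calmodulin switch on myosin light chain kinase, which phosphorylates the regulatory light chain, and myosin phosphatase reverses it. Most of these proteins exist as a smooth muscle isoform and as a non-muscle isoform, and SMCs that leave the contractile state are known to lose the smooth muscle isoforms. Many of the genes carry CArG boxes, the binding motif of serum response factor (SRF), a main activator of smooth muscle genes.

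The chosen cells held 30778165 UMIs in the KO library and 20011501 UMIs in the Control library, with a median per cell of 15012 UMIs in KO and 11665 UMIs in Control cells. Over each whole library, the SMC markers Myh11, Acta2, Tagln, Cnn1 and Myl9 summed to 20068 CPM (counts per 1e6 UMIs) in KO and 41988 CPM in Control cells. All of them are on the list itself, and such sums do not show how single cells differed. Macrophage markers summed to 15.4 CPM in KO and 18.0 CPM in Control cells, and endothelial markers to 12.6 and 19.9 CPM in KO and Control cells, with Cdh5 and Tie1 at 0 in both. Fibroblast markers summed to 1673 CPM in KO and 1470 CPM in Control cells, and all 8 of them had UMIs in both libraries. These markers went opposite ways: Dcn had 352.2 CPM in KO and 22.9 CPM in Control cells, Lum 253.6 CPM in KO and 6.10 CPM in Control cells, and Pdgfra 25.2 CPM in KO and 7.05 CPM in Control cells, while Col1a2 had 636.4 CPM in KO and 973.8 CPM in Control cells. Pericyte markers summed to 479.3 CPM in KO and 1005 CPM in Control cells, with Rgs5 at 48.0 CPM in KO and 677.1 CPM in Control cells and Abcc9 at 260.7 CPM in KO and 101.7 CPM in Control cells. Their part in the levels below was not tested. Tsc1 had 263 UMIs (8.55 CPM) in KO and 191 UMIs (9.54 CPM) in Control cells, a ratio of 0.895 (0.740 to 1.08). Since tags outside the deleted part of Tsc1 are still counted, this does not check the genotype. The reporter eGFP stood at 3592 CPM in KO and 5660 CPM in Control cells.

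Most of the 43 genes were lower in KO cells. Of the 42 genes at 50 CPM or more in at least 1 library, 32 were lower in KO by 1.5-fold or more, 1 (Tpm4) was higher and 9 lay between. Over all genes at that level, 14.2% were lower and 12.1% were higher past the same fold. Together the 43 genes took 4.84% of all UMIs in KO cells and 9.18% in Control cells. Their median log2 ratio of KO over Control was -0.89, beside -0.04 over all genes tested. The gene left out for its low level was Pln, which encodes phospholamban, the inhibitor of the calcium pump of the sarcoplasmic reticulum. It had 6.40 CPM in KO and 11.2 CPM in Control cells, a ratio of 0.569 (0.468 to 0.692).

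**Figure D1:**
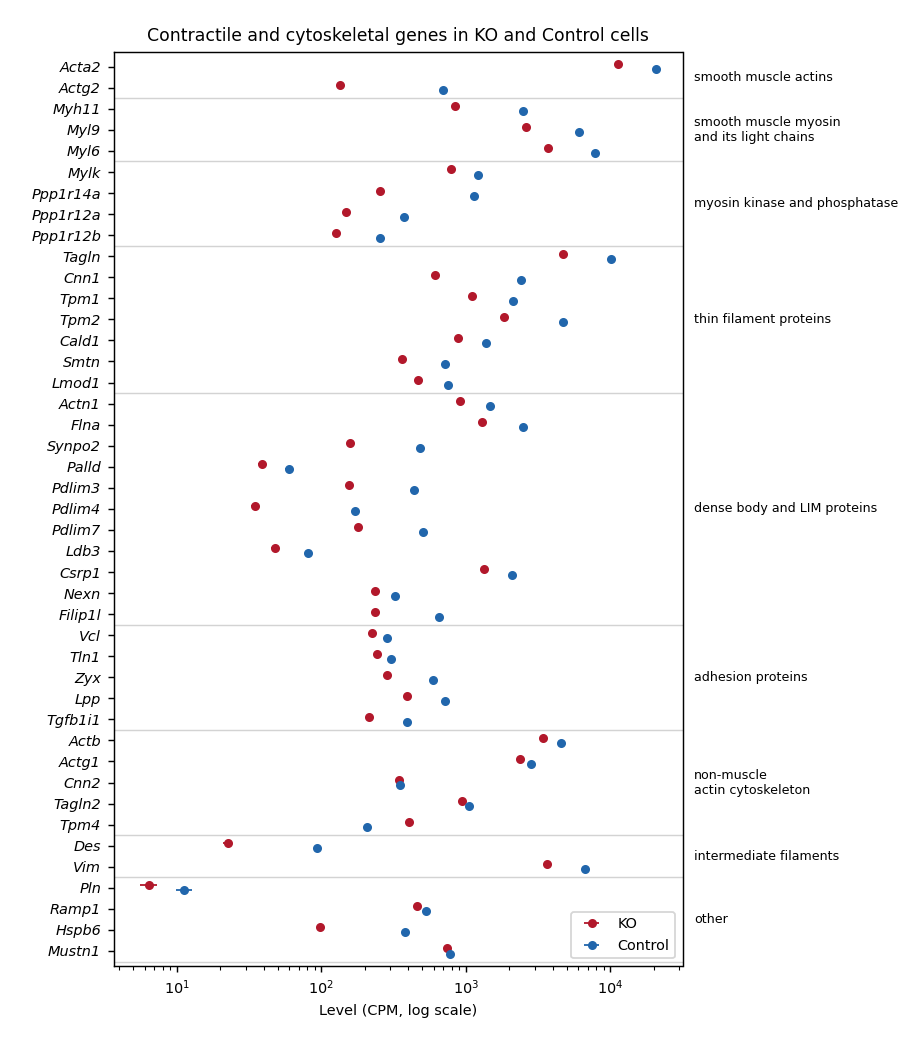
Level of each of the 43 genes in CPM (log axis) in KO and Control cells, grouped by the role of the protein; points are the summed cells of 1 library and bars are 95% Poisson intervals, mostly smaller than the points. KO points lie left of Control points for every gene but Tpm4, at 405.6 CPM in KO and 207.5 CPM in Control cells.

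Both smooth muscle actins were lower in KO cells, Actg2 by far the more. Acta2 (chromosome 19, 34241090 to 34255590, mm10), which encodes the main actin of vascular SMCs, had 11271 CPM in KO and 20922 CPM in Control cells, a ratio of 0.539 (0.536 to 0.541). Actg2 (chromosome 6, 83512905 to 83536265), which encodes the smooth muscle gamma actin, had 135.5 CPM in KO and 693.3 CPM in Control cells. Its ratio of 0.195 (0.189 to 0.202) was the lowest of all 43. The non-muscle actins stayed within 1.5-fold: Actb had 3441 CPM in KO and 4535 CPM in Control cells, a ratio of 0.759 (0.752 to 0.765). Actg1 had 2364 CPM in KO and 2832 CPM in Control cells, a ratio of 0.835 (0.826 to 0.844).

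Myosin and the genes that set its activity were lower in KO cells, the inhibitor of the phosphatase most of all. Myh11 (chromosome 16, 14194535 to 14291372), the smooth muscle myosin heavy chain, had 846.7 CPM in KO and 2505 CPM in Control cells, a ratio of 0.338 (0.333 to 0.343). The regulatory light chain Myl9 had a ratio of 0.434, with 2625 CPM in KO and 6051 CPM in Control cells. The essential light chain Myl6 had a ratio of 0.478, with 3743 CPM in KO and 7831 CPM in Control cells. All myosin subunits on the list were thus past 2-fold, while the kinase was less changed: Mylk had 795.2 CPM in KO and 1217 CPM in Control cells, a ratio of 0.653 (0.642 to 0.665). Ppp1r14a encodes CPI-17, which inhibits myosin phosphatase once it is phosphorylated, and had 255.5 CPM in KO and 1134 CPM in Control cells, a ratio of 0.225 (0.220 to 0.231). The targeting subunits of the phosphatase were also lower, Ppp1r12a at 148.8 CPM in KO and 375.9 CPM in Control cells (ratio 0.396) and Ppp1r12b at 126.5 CPM in KO and 255.1 CPM in Control cells (ratio 0.496).

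All 7 thin filament genes were lower in KO cells past 1.5-fold. Cnn1 encodes calponin, which binds actin and slows the myosin ATPase, and had 608.8 CPM in KO and 2429 CPM in Control cells, a ratio of 0.251 (0.246 to 0.255). Tropomyosin runs along the actin filament: Tpm2 had 1856 CPM in KO and 4732 CPM in Control cells (ratio 0.392), and Tpm1 had 1106 CPM in KO and 2128 CPM in Control cells (ratio 0.520). Tagln, which encodes the actin-bundling protein SM22 alpha, had 4716 CPM in KO and 10081 CPM in Control cells, a ratio of 0.468 (0.465 to 0.471). Calponin was therefore further below Control than the tropomyosins and transgelin. Smoothelin (Smtn) had a ratio of 0.504, leiomodin (Lmod1), which nucleates actin filaments, 0.613, and caldesmon (Cald1) 0.643.

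Dense body and LIM-domain genes had ratios of 0.204 to 0.726, and 10 of 11 were lower past 1.5-fold. The lowest was Pdlim4, a PDZ and LIM protein of actin bundles, with 34.8 CPM in KO and 170.9 CPM in Control cells, a ratio of 0.204 (0.190 to 0.218). Its relatives Pdlim7 (178.8 CPM in KO, 509.0 CPM in Control cells) and Pdlim3 (156.9 CPM in KO, 440.8 CPM in Control cells) had ratios of 0.351 and 0.356. Synpo2, an actin-bundling protein of the Z-disc and dense body, had 159.1 CPM in KO and 481.0 CPM in Control cells, a ratio of 0.331 (0.320 to 0.342), and Filip1l, a filamin-interacting protein, had 235.6 CPM in KO and 651.1 CPM in Control cells (ratio 0.362). These 5 genes stood below the crosslinkers themselves. Filamin A (Flna) had 1300 CPM in KO and 2493 CPM in Control cells (ratio 0.522), and alpha-actinin 1 (Actn1) 918.5 CPM in KO and 1469 CPM in Control cells (ratio 0.625). Ldb3 had a ratio of 0.588, Csrp1 0.637 and Palld 0.650, and Nexn, at 234.8 CPM in KO and 323.3 CPM in Control cells, lay within 1.5-fold at 0.726.

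The adhesion genes divided. Zyxin (Zyx) had 287.1 CPM in KO and 589.7 CPM in Control cells, a ratio of 0.487 (0.474 to 0.500), and its relative Lpp and the paxillin-like Tgfb1i1 had ratios of 0.552 and 0.549. Vinculin (Vcl) and talin 1 (Tln1), which link integrins to actin, lay within 1.5-fold. Vcl had 223.5 CPM in KO and 286.2 CPM in Control cells (ratio 0.781), and Tln1 had 243.9 CPM in KO and 305.1 CPM in Control cells (ratio 0.799).

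Both intermediate filament genes were lower. Desmin (Des), the muscle one, had 22.5 CPM in KO and 94.0 CPM in Control cells, a ratio of 0.239 (0.219 to 0.261), and vimentin (Vim), found in most mesenchymal cells, had 3666 CPM in KO and 6713 CPM in Control cells, a ratio of 0.546 (0.542 to 0.550). Of the non-muscle actin-binding genes, Cnn2 (ratio 0.986) and Tagln2 (ratio 0.888) lay within 1.5-fold. Tpm4, a non-muscle tropomyosin, was the 1 gene that was higher, at 405.6 CPM in KO and 207.5 CPM in Control cells, a ratio of 1.95 (1.89 to 2.02). The remaining genes are not parts of the filaments. Hspb6 encodes the small heat shock protein HSP20, linked to relaxation, and had 97.6 CPM in KO and 381.0 CPM in Control cells, a ratio of 0.256 (0.246 to 0.267). Ramp1, a subunit of the receptor for the vasodilator CGRP, had a ratio of 0.865, and Mustn1, a small nuclear protein of the musculoskeletal system, had a ratio of 0.960.

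Several of the lowered genes were also seen in fewer KO cells. Cells were thinned to 5000 UMIs each, which left 1902 KO and 1602 Control cells. Actg2 had a UMI in 28.3% of KO cells (26.3 to 30.4) and 71.9% of Control cells (69.6 to 74.0). Cnn1 was seen in 70.4% of KO and 99.9% of Control cells, Ppp1r14a in 54.7% of KO and 95.01% of Control cells, and Hspb6 in 35.2% of KO and 79.8% of Control cells. For each of them the shares in the 2 libraries were far apart, while Acta2 was seen in 99.9% of KO and 100% of Control cells. Tpm4 was seen in 82.4% of KO and 61.2% of Control cells. Unthinned, Actg2 was seen in 44.1% of KO and 80.7% of Control cells, and Hspb6 in 63.7% of KO and 93.7% of Control cells. In the 65 Control cells without eGFP that were deep enough to thin, 1.54% had Actg2, 1.54% Cnn1, 7.69% Ppp1r14a and 3.08% Hspb6. In these cells free RNA cannot be told apart from RNA of the cells' own. None of the 12 KO cells without eGFP was deep enough to thin. In all, 21 of the 43 genes were seen in at least 10 percentage points fewer KO than Control cells, as were 14.5% of all genes at 50 CPM or more in at least 1 library.

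Promoter sequence was read for the 37 genes with a window in the RefSeq promoter table (GRCm38.p6, 250 bases before to 50 bases after a start). The motif searched, on both strands, was the strict CArG box, which has only A or T between its outer C and G pairs. Its 2 strands read alike, so a match on one is a match on the other. It was found in 7 genes (Actg1, Cnn2, Filip1l, Ldb3, Myl6, Myl9 and Vcl), 18.9% of the 37, and in 1.81% of all genes of the table. Myl9, Myl6, Filip1l and Ldb3 were lower in KO past 1.5-fold, and Actg1, Cnn2 and Vcl were not, so matches lay on both sides of the limit. Actb, Actg2, Myh11, Nexn, Tagln and Tgfb1i1 had no window in the table and were not searched. Acta2 has no strict match but a pair of boxes with 1 inner C or G, a looser form. With strict and looser boxes counted together, 32.4% of the 37 genes and 11.3% of all had a match. The stretches below show the boxes in capitals, 5' to 3' on the strand of the gene, for lowered genes (Acta2, Myl9, Myl6) and for genes within 1.5-fold (Actg1, Cnn2, Vcl). They lie at chr19:34255418-34255487 and chr19:34255374-34255437 (Acta2, minus strand), chr2:156775273-156775342 (Myl9, plus), chr10:128493020-128493089 (Myl6, minus), chr11:120348546-120348615 (Actg1, minus), chr10:79988514-79988583 (Cnn2, plus) and chr14:20929148-20929210 (Vcl, plus).
Acta2, box 84 bases before the start: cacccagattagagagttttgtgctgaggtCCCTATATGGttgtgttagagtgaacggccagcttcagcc
Acta2, box 34 bases before the start: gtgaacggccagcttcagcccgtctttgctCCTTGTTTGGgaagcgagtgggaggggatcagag
Myl9, box 161 bases before the start: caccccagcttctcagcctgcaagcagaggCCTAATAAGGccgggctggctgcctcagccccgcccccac
Myl6, box 50 bases before the start: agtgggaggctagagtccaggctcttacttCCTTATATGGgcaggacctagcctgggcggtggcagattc
Actg1, box 90 bases before the start: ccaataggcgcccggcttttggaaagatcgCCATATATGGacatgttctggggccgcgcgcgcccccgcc
Cnn2, box 56 bases before the start: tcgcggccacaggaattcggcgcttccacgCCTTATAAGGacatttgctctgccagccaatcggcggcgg
Vcl, box 227 bases before the start: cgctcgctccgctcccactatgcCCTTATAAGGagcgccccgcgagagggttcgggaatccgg

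Single cells differed widely in how much of their RNA was contractile. The contractile share of a cell was the percent of its UMIs from 17 of the genes: Myh11, Acta2, Tagln, Cnn1, Smtn, Myl9, Mylk, Lmod1, Tpm1, Tpm2, Actg2, Des, Synpo2, Cald1, Csrp1, Ppp1r14a and Pln. Its median was 2.50% in KO and 5.48% in Control cells. In KO cells 90% of the values were spread over 0.380% to 6.33%, against 2.79% to 8.44% in Control cells. A share under 1% was found in 432 KO cells (22.5%, 20.7 to 24.4) and in 1 Control cell (0.0591%). A share under 4% was found in 75.5% of KO and 19.1% of Control cells, and the libraries overlapped over the upper part of the KO range. Such a share cannot tell fewer contractile transcripts from more RNA of other genes.

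**Figure D2:**
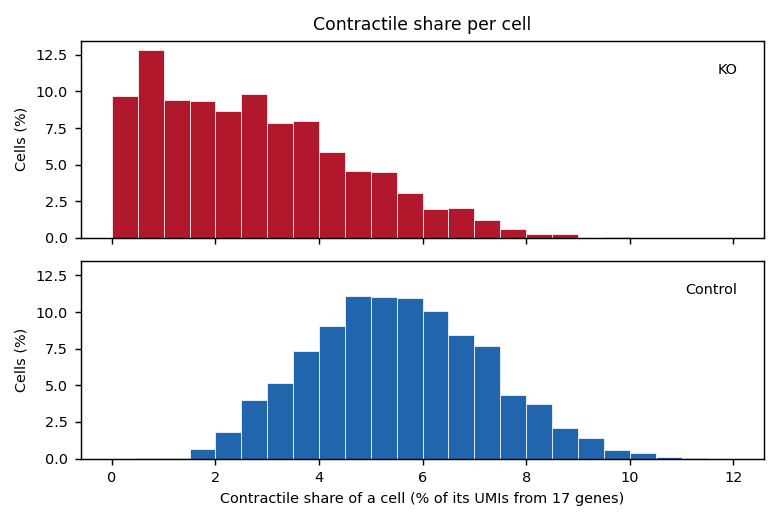
Contractile share of each cell (percent of its UMIs from 17 genes, in steps of 0.5 points) against the percent of cells, KO above and Control below. KO cells spread from 0.150% to 9.63% with 22.5% of them under 1%, and Control cells peak near their median of 5.48%.

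Ordering the KO cells by contractile share and cutting them into 10 equal deciles, decile 1 highest, showed that the genes did not fall together. Each of the 17 genes was left out of the share when its own levels were read. Of the 40 genes at 50 CPM or more in decile 1 or decile 10, 39 fell by 1.5-fold or more in decile 10, and Tpm4 held. Over all genes, 20.2% fell and 17% rose past the same fold. The ordering was made from 17 of the genes, so that many of them fall along it by construction, and the values describe the order of the falls. The order was read as the first decile from which a gene stayed at or under 1/1.5 of its level in decile 1.

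Actg2 fell first, from decile 2 on. It stood at 8.78 CPM in decile 10 against 481.5 CPM in decile 1, a ratio of 0.018 (0.012 to 0.026). Acta2, Cnn1, Myl9, Tpm2 and Ppp1r14a followed from decile 3, and Tagln, Myl6 and Pdlim3 from decile 4. Acta2 stood at 1463 CPM in decile 10 against 28816 CPM in decile 1 (ratio 0.051), Tagln at 327.1 CPM against 10429 CPM (ratio 0.031) and Cnn1 at 51.0 CPM against 1574 CPM (ratio 0.032). Myl6 (ratio 0.233) and Pdlim3 (ratio 0.209) passed the limit early but kept more of their level. In the eGFP-negative Control cells Acta2 had 85.7 CPM, Tagln 15.2 CPM, Cnn1 7.58 CPM and Actg2 1.52 CPM, all below KO decile 10. Ppp1r14a was at a like level in both, with 30.9 CPM (25.2 to 37.5) in KO decile 10 and 29.6 CPM in the eGFP-negative cells. Those cells are from the Control library and do not give the level of free RNA in the KO library.

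Myh11 fell later. It still had 84.3% of its decile 1 level in decile 5 and 45.8% in decile 7, and stood at 89.2 CPM in decile 10 against 1368 CPM in decile 1 (ratio 0.065). Decile 6 was also the first for Tpm1, Des, Tgfb1i1, Ramp1, Hspb6, Pdlim7, Ldb3, Ppp1r12a, Filip1l and Vim. Decile 7 was the first for Smtn, Lmod1, Synpo2, Flna, Actn1, Nexn, Mustn1, Ppp1r12b, Actb and Tagln2. Of the actins, Actg1 passed the limit from decile 5, at 1522 CPM in decile 10 against 3544 CPM in decile 1 (ratio 0.429), a much shallower fall than those of Acta2 and Actg2.

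The kinase, most adhesion genes, Cald1 and Cnn2 passed the limit last. Mylk was at 1179 CPM in decile 4, above its 1000 CPM in decile 1, and passed the limit from decile 8, with Pln, Zyx and Lpp. Lpp was at 581.2 CPM in decile 5 against 439.7 CPM in decile 1, and at 102.6 CPM in decile 10. Cald1, Vcl, Tln1 and Cnn2 passed it from decile 9, with ratios of decile 10 to decile 1 of 0.330 for Cald1, 0.365 for Vcl, 0.476 for Tln1 and 0.363 for Cnn2. Tpm4 never passed it: it stood at 310.0 CPM in decile 1, 497.8 CPM in decile 8 and 345.7 CPM in decile 10. Pdlim4 held as well, at 27.8 CPM in decile 10 against 41.6 CPM in decile 1, but was under 50 CPM throughout. Des (at most 47.9 CPM in any KO decile) and Pln (at most 14.5 CPM) were also under 50 CPM throughout. Their places in the order therefore rest on low counts. Over 12 ways of choosing, ordering or binning the cells in 10 deciles, Actg2 and Ppp1r14a passed the limit from decile 2 or 3, Acta2 from decile 3 or 4, Zyx no earlier than decile 7 and Vcl no earlier than decile 8. Other places in the order moved with the setting: Mylk passed it from decile 4 to 9, Myh11 from 4 to 8, and Lpp, Cald1 and Cnn2 from 6 to 10.

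**Figure D3:**
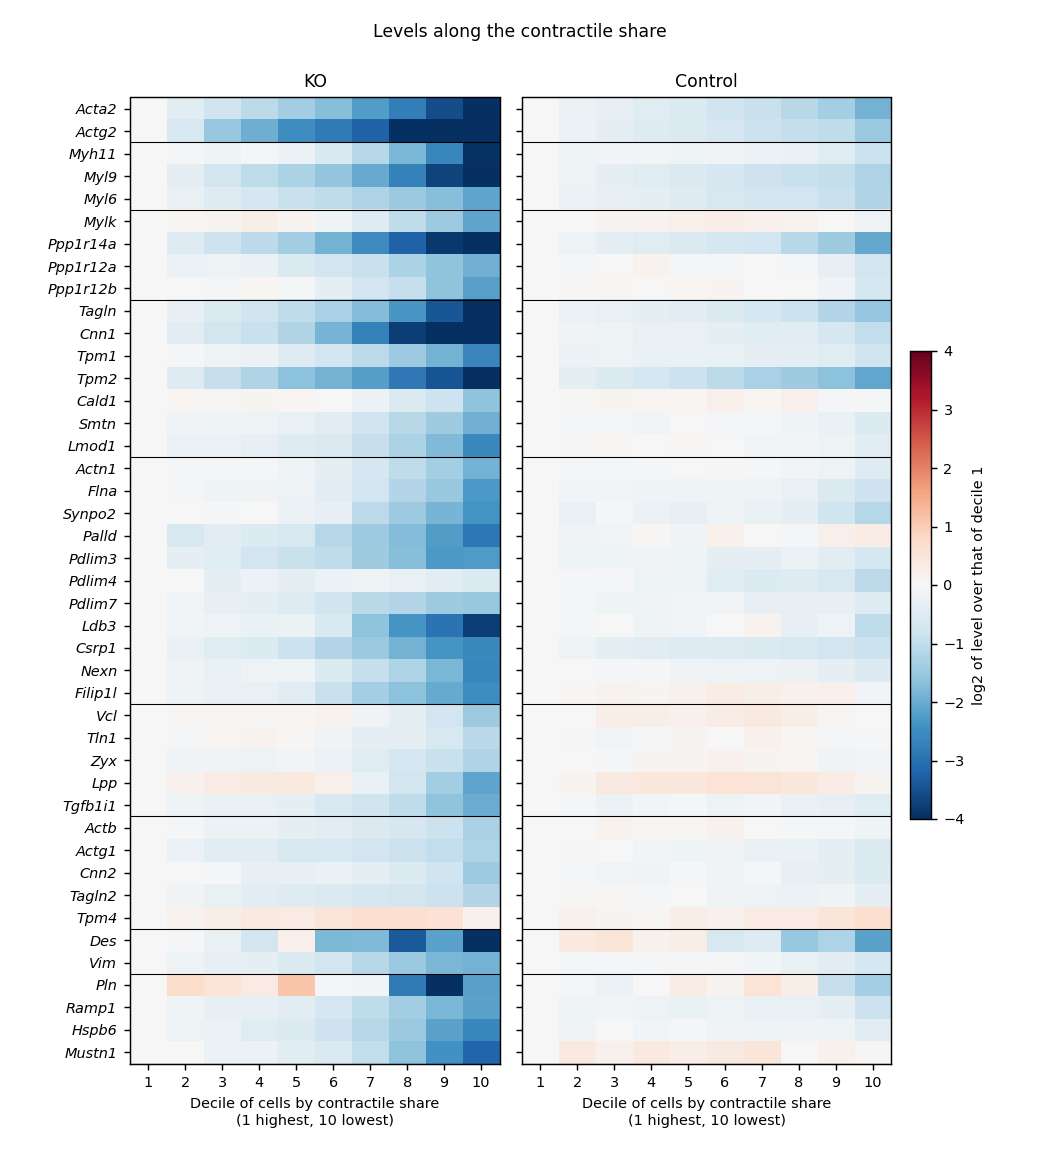
log2 of the level of each gene over its level in decile 1, for KO cells (left) and Control cells (right) in 10 equal deciles of each library by contractile share; colours are capped at -4 and 4. In KO cells blue spreads from the actins, Cnn1, Tpm2 and Ppp1r14a early in the order, Vcl and Tln1 stay pale until decile 8, and Tpm4 is red; Control cells span a smaller range.

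In Control cells the falls were smaller and fewer. Of 42 genes, 22 fell past 1.5-fold in decile 10, 1 (Tpm4) rose and 19 lay between, and over all genes 8.40% fell and 22.2% rose. Tpm2 passed the limit first, from decile 4, then Myl9 from decile 5, Acta2, Myl6, Actg2 and Ppp1r14a from decile 6, and Tagln and Csrp1 from decile 7. These 8 genes also passed it by decile 5 in KO cells. Acta2 stood at 8617 CPM in decile 10 against 32261 CPM in decile 1 (ratio 0.267), and Ppp1r14a at 413.2 CPM against 1723 CPM (ratio 0.240). Myh11 (ratio 0.547) and Cnn1 (ratio 0.508) fell less, and Mylk (0.864), Cald1 (0.939), Zyx (0.929), Vcl (1.001) and Tln1 (0.937) stayed near their decile 1 level. Tpm4 stood at 279.9 CPM in decile 10 against 175.0 CPM in decile 1, a ratio of 1.60 (1.39 to 1.83), but was under 1.5 under some other orderings. The deciles of the libraries are not matched: KO decile 10 had a median share of 0.379% and Control decile 10 of 2.79%.

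Other measures moved along the same order. Fibroblast markers summed to 4356 CPM in KO decile 10 against 545.3 CPM in KO decile 1, and to 2628 CPM in Control decile 10 against 904.8 CPM in Control decile 1. The SMC markers, which are among the ordering genes, summed to 1925 CPM in KO decile 10, less than the fibroblast markers there. In Control decile 10 they summed to 18616 CPM. Dcn and Lum led the list in KO decile 10, and Pi16 and Dpt had 1 and 71 UMIs there and 0 in KO decile 1. Cells with Dlx5, Dlx6 or Msx2 made up 27.7% of KO decile 10 against 5.21% of KO decile 1, and 60.9% of Control decile 10 against 5.29% of Control decile 1. The reporter eGFP stood at 2616 CPM in KO decile 10 against 5552 CPM in KO decile 1. Median depth was 16310 UMIs in KO decile 10 and 16294.5 UMIs in KO decile 1, but 8782 UMIs in Control decile 10 and 14233.5 UMIs in Control decile 1. Pericyte markers summed to 2106 CPM in Control decile 10 against 449.7 CPM in Control decile 1. Rgs5 made up most of that rise, at 1740 CPM against 177.1 CPM, while Abcc9 and Kcnj8 rose less and Cspg4 fell. In KO cells the sum was 425.0 CPM in decile 10 against 371.5 CPM in decile 1, with Abcc9 and Kcnj8 rising and Rgs5 and Cspg4 falling. The part of all these measures in the order of the 43 genes was not tested. When the cells with 3 or more UMIs of Dcn and Lum were left out, 25 of the genes were lower and 1 was higher in KO past 1.5-fold, beside 12.3% lower and 10.9% higher over all genes.

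Ratios of smooth muscle to non-muscle isoforms were lower in KO cells in most families. UMIs of a smooth muscle isoform were divided by those of its non-muscle relatives in the same cells, so the ratio does not depend on the total. Its size also depends on how well each transcript is captured. Counts are per gene, so splice forms of the same gene were pooled, and each gene was put whole on 1 side. Of 8 ratios taken, 6 were lower in KO past 1.5-fold, among them desmin over vimentin, which are not isoforms of the same protein. Tropomyosin (Tpm1 and Tpm2 over Tpm3 and Tpm4) stood at 5.55 in KO and 24.3 in Control cells, 0.228 times as high (0.221 to 0.236). The myosin heavy chain (Myh11 over Myh9 and Myh10) stood at 2.04 in KO and 8.18 in Control cells, 0.250 times as high (0.241 to 0.258). In both, the non-muscle side was higher in KO: Tpm3 had 127.8 CPM in KO and 74.8 CPM in Control cells, and Myh9 had 96.6 CPM in KO and 44.97 CPM in Control cells. Myh10, which holds most of the non-muscle myosin UMIs, was within 1.5-fold, at 318.0 CPM in KO and 261.2 CPM in Control cells (ratio 1.22). Calponin (Cnn1 over Cnn2 and Cnn3) stood at 0.859 in KO and 2.64 in Control cells. The regulatory light chain (Myl9 over Myl12a and Myl12b) stood at 2.75 in KO and 5.95 in Control cells, and transgelin (Tagln over Tagln2) at 5.02 in KO and 9.54 in Control cells. Desmin over vimentin was 0.00613 in KO and 0.0140 in Control cells, and vimentin was itself lower in KO (ratio 0.546). The actin ratio (Acta2 and Actg2 over Actb and Actg1) was 1.97 in KO and 2.93 in Control cells, 0.670 times as high (0.664 to 0.675) and just inside the limit. The phosphatase subunits Ppp1r12b over Ppp1r12a stood at 0.850 in KO and 0.679 in Control cells, within 1.5-fold. These genes are not clearly a smooth muscle and a non-muscle isoform, so their ratio is not read as an exception.

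Along the contractile share the non-muscle isoforms came to outnumber the smooth muscle ones in several KO families. The actin ratio was 3.62 in KO decile 1, 0.878 in decile 8 and 0.407 in decile 10, and in Control cells it was 4.34 in decile 1 and 1.46 in decile 10. The light chain ratio was 6.90 in KO decile 1 and 0.244 in decile 10, and the transgelin ratio 7.80 in KO decile 1 and 0.542 in decile 10. In each of these 3 families the KO ratio in decile 1 was within 2-fold of the Control ratio in decile 1, and it was under 1 only at the low end. Myosin heavy chain and calponin were already low at the top. The myosin ratio was 3.53 in KO decile 1, below the 4.61 of Control decile 10, and 0.425 in KO decile 10, and the calponin ratio was 1.64 in KO decile 1, below the 1.98 of Control decile 10, and 0.130 in KO decile 10. Tropomyosin stood at 17.5 in KO decile 1 and 1.03 in decile 10, against 43.9 and 8.94 in Control deciles 1 and 10. Within the KO cells the non-muscle partners took different courses: Myh9 (ratio of decile 10 to decile 1 of 2.30), Tpm3 (2.03) and Myl12b (1.81) rose, Myl12a held (0.960), and Myh10 (0.292) and Cnn3 (0.445) fell.

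**Figure D4:**
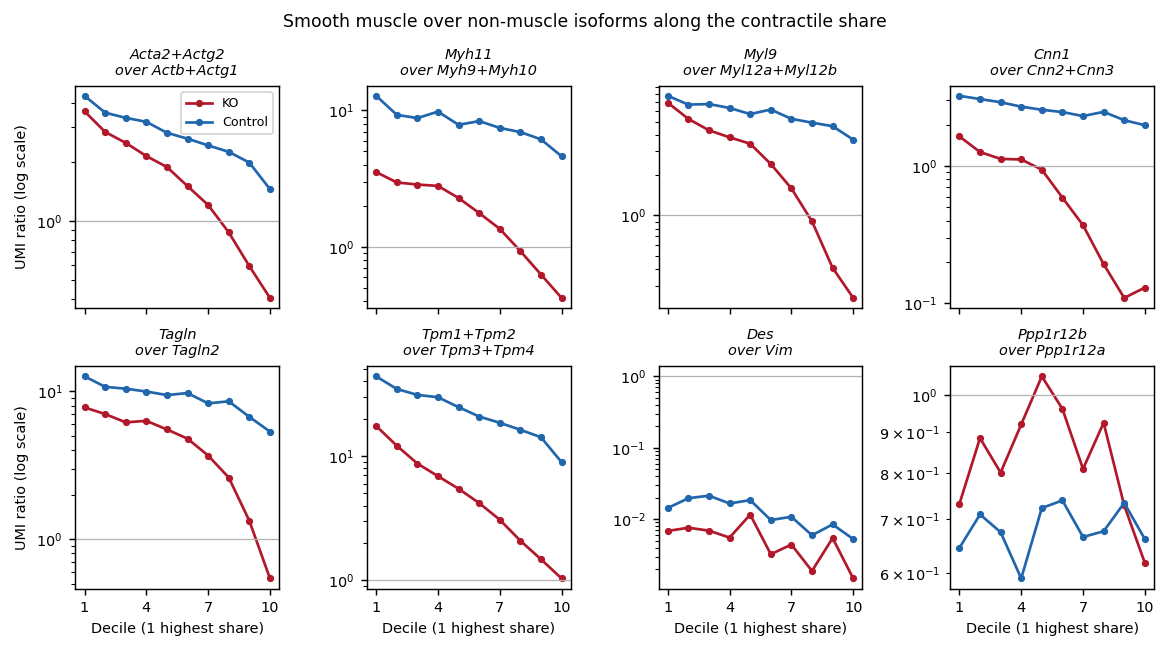
UMIs of smooth muscle isoforms over UMIs of non-muscle isoforms (log axis, its range set per panel) in 8 families, by decile of contractile share in KO and Control cells; the grey line marks equal UMIs. The pair Ppp1r12b over Ppp1r12a is not clearly a smooth muscle and a non-muscle isoform, and Des and Vim encode different proteins. KO actin goes below the line at decile 8 (0.878), and KO myosin heavy chain starts at 3.53, under every Control decile.

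Some genes were lower in KO cells even at a like contractile share. Cells were compared within bins of 2 percentage points of share that held at least 50 cells of each library. At 4 to 6%, 15 of 41 genes were lower in KO past 1.5-fold and 1 was higher, and over all genes 14.5% were lower and 9.82% were higher. In every bin compared, with at least 50 CPM in 1 of the libraries, 10 of 42 genes were lower: Myh11, Cnn1, Actg2, Des, Ppp1r14a, Hspb6, Pdlim7, Pdlim4, Zyx and Ppp1r12a. Des was under 50 CPM in both libraries at 2 to 4% (ratio 0.883), so that bin was not counted for it. Of all genes with at least 50 CPM in each of 3 bins, 8.40% were lower in each. That share left out no gene from the contractile share and skipped no bin, so it is only a rough comparison. At 4 to 6%, Myh11 had 1309 CPM in 330 KO cells and 2571 CPM in 738 Control cells, a ratio of 0.509 (0.496 to 0.523). Hspb6 had 147.3 CPM in KO and 381.5 CPM in Control cells (ratio 0.386), Ppp1r14a 472.9 CPM in KO and 1032 CPM in Control cells (ratio 0.458), and Pdlim4 38.8 CPM in KO and 158.4 CPM in Control cells (ratio 0.245). By contrast Tagln (ratio 0.872), Myl9 (0.922), Tpm2 (0.871) and Lmod1 (0.860) were near Control in this bin. Acta2, Tagln and Myl9 make up much of the share, so genes that move with them are in part matched by construction. The bins were also not fully alike inside. The median full share was 4.88% in KO and 5.06% in Control cells at 4 to 6%, and 2.93% in KO and 3.35% in Control cells at 2 to 4%. For Acta2, whose own UMIs make up much of the share, the bins without it were 0 to 2% (ratio 0.774) and 2 to 4% (ratio 1.16). Tpm4 was higher in KO in each bin, with 341.5 CPM in KO and 210.4 CPM in Control cells at 4 to 6% (ratio 1.62). Bins of 1 point gave 7 genes lower in every bin and 0 higher. Matching on the 14 other genes without Acta2, Tagln and Myl9 gave 29 lower with bins of 2 points and 7 with bins of 0.5 points.

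**Figure D5:**
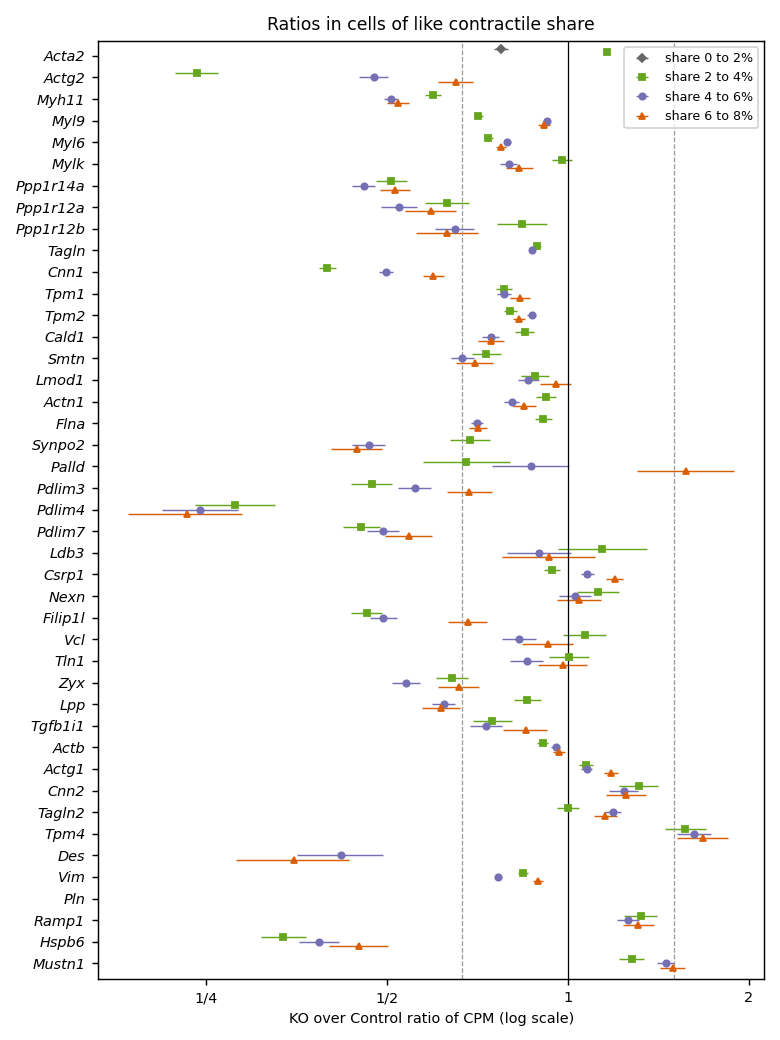
Ratio of KO over Control CPM (log axis) for each gene in cells of like contractile share, with 95% counting intervals; dashed lines mark 1.5-fold either way, and genes under 50 CPM in both libraries have no point. Myh11, Cnn1, Ppp1r14a, Hspb6, Pdlim4 and Pdlim7 lie left of the lower line in every bin, and Actb, Lmod1 and Tagln lie between the lines.

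Levels by decile gave a further comparison, without matching. For 11 of 42 genes the highest KO decile lay below the lowest Control decile, as it did for 13.6% of all genes. They were Myh11, Smtn, Synpo2, Cald1, Hspb6, Pdlim7, Pdlim3, Pdlim4, Zyx, Ppp1r12a and Filip1l. Myh11 reached at most 1368 CPM in any KO decile and at least 1595 CPM in every Control decile, and Hspb6 at most 168.0 CPM in KO and at least 311.2 CPM in Control deciles. For Smtn the gap was narrow, 527.3 CPM in KO and 535.6 CPM in Control deciles, as it was for Ppp1r12a, 235.9 CPM in KO and 241.6 CPM in Control deciles. For both, the counting interval of the highest KO decile reached past that Control level (to 552.7 CPM for Smtn and 253.2 CPM for Ppp1r12a). Tpm4 was the reverse, with at least 310.0 CPM in every KO decile and at most 279.9 CPM in any Control decile. Acta2 overlapped: its KO deciles ran up to 28816 CPM, above 9 of the 10 Control deciles.

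Most other genes of the actin and contractile system that reached 50 CPM lay within 1.5-fold. Of 67 such genes outside the 43, 50 had at least 50 CPM in at least 1 library. Of these, 12 were lower and 5 higher in KO past 1.5-fold, and 33 lay between, beside the 14.2% lower and 12.1% higher of all genes given above. The 5 higher genes are a smaller share than among all genes. The lowest were profilin 1 (Pfn1), which binds actin monomers, with 186.9 CPM in KO and 624.4 CPM in Control cells (ratio 0.299), caveolin 1 (Cav1), with 159.4 CPM in KO and 468.4 CPM in Control cells (ratio 0.340), and the adaptor Sorbs2 (ratio 0.344). Those higher past 2-fold were Tmsb10, which encodes thymosin beta 10, a binder of actin monomers, with 1202 CPM in KO and 377.5 CPM in Control cells (ratio 3.18), and Myh9 (ratio 2.15).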

How the data were processed

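The deposited files used here hold raw UMI counts, with genes in rows and cells in columns, 1 matrix a library. The submitters' processing notes name the tools Cell Ranger, bcl2fastq and Seurat 2.0 and the build mm10. The labels do not say how the authors called cells. The 43 genes and all lists, markers and limits were chosen with earlier results of these data known. The named genes are all 43, their isoform partners, other actin genes past 2-fold (up to 3 at either end), markers, eGFP and Tsc1. Deposited counts were summed over cells per library and divided by the library total (CPM), with exact Poisson intervals. Ratios have exact conditional intervals, and shares of cells Clopper-Pearson intervals. Calls needed 1.5-fold and 50 CPM in at least 1 library. In each library 3 UMIs equal 0.0975 CPM (KO) and 0.150 CPM (Control). Scrublet marked 6 KO and 6 Control cells, which is under 0.5% of each library, so doublets were not effectively called and stayed in. Of the cell barcodes, 16 occur in both libraries. Detection was read after thinning to 5000 UMIs, which left out 17 KO and 90 Control cells. Tgfb1i1 has a second identifier with 0 UMIs, which was not used. Promoters came from RefSeq (GRCm38.p6). For 43 of 47 windows, sequence just after the start occurs somewhere in a GENCODE transcript of the gene. Whether the transcript begins at that start was not checked. The scripts (Python 3.11.15, numpy 2.4.6, scipy 1.17.1, scanpy 1.11.5) were tested on simulated data.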

Additional observations from a re-analysis of the deposited data

How the results depend on the processing

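With 1 library per genotype no replicate could be left out. No paired analysis was possible because each genotype has 1 library. Calls rest on the limits chosen. At 2-fold, 18 of the 43 genes were lower and 0 higher in KO (6.00% and 5.80% of all genes), and 5 of the other actin genes were lower and 2 higher. For those other genes, 19 were lower with a mitochondrial limit of 5%, and 8 or 10 were higher with a minimum of 10 CPM or none beyond 3 UMIs. In the KO order 12 genes passed the limit by decile 5. That count was 33 with the 5% mitochondrial limit, which kept 648 KO cells, 21 when cells were ordered by the other 14 genes, and 6 with 5 equal bins. In Control cells 13 genes fell with 5 equal bins, 2 rose without cells with Dlx5, Dlx6 or Msx2, and 0 rose with 5 equal bins, with standardized log levels or CPM taken outside the 43 genes. Pln in Control decile 10 over decile 1 reversed to 1.14 without the Dlx5, Dlx6 or Msx2 cells. At a like share, the count higher in every bin was 0 with bins of 1 point, and 0 with bins of 0.5 points on the other 14 genes. The count lower in every bin was 29 when matched on those 14 genes with bins of 2 points. Unthinned, 12 genes were seen in at least 10 points fewer KO cells. With strict and looser CArG boxes counted together, 12 genes had a match. The causes of these changes were not tested, except that looser limits add calls by construction. The 5% mitochondrial limit also did not act evenly along the KO order. Median mitochondrial UMIs were 5.71% in KO decile 1, 6.44% in decile 5 and 4.48% in decile 10, so the limit changed which cells were ordered. Its part in the count of 33 was not tested. The alternatives of Dcn and Lum cells, shared barcodes, the looser box, unthinned detection and 0.5-point bins on 14 genes, and all those for the other actin genes, were chosen after seeing the data. No other gene called past 1.5-fold changed sign in the alternatives run; genes within 1.5-fold did, such as Palld in Control deciles (0.644 to 1.33) and Tpm4 in KO deciles (0.843 to 1.43).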
